A study of Mus musculus with 30 samples.

Results

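The genes of 8 enzymes of prostaglandin and leukotriene metabolism, and of the protein that serves 1 of them, were followed in mouse dendritic cells derived from bone marrow. The 9 genes were taken from a table of 25611 gene rows by symbol, and all 9 had 1 row each and passed the filter on low counts that left 14808 genes. They were chosen by 2 patterns measured in these data, the low level of Hpgd after 4 h with apoptotic Jurkat cells and the smaller response of Ptges to OVA in the knockout, so every comparison of Ptges that involves untreated or OVA libraries, and of Hpgd that involves libraries with Jurkat cells for 4 h, is given without a test. The cells came from Rubcn KO or WT mice, and FLT3L at 200 ng/ml had been present over the 6 to 7 days of culture. Rubcn encodes Rubicon, a regulator of autophagy and of LC3-associated phagocytosis. Within each genotype the cells were left untreated, or were given OVA (ovalbumin, a protein antigen) for 30 min, OVA for 4 h, apoptotic Jurkat cells for 30 min, or apoptotic Jurkat cells for 4 h. Jurkat is a leukaemia line of human T cell origin. Each of these 10 groups had 3 libraries of bulk RNA, 30 in all. The labels do not say that the 3 came from separate mice or cultures, so p-values measure only the spread between these samples.

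Prostanoids and leukotrienes are lipid mediators made from arachidonic acid that phospholipases free from membranes. The cyclooxygenases Ptgs1 (COX-1, commonly a housekeeping form) and Ptgs2 (COX-2, an inducible form) make the precursor prostaglandin H, which Ptges (microsomal prostaglandin E synthase) turns into prostaglandin E, and Hpgd (15-hydroxyprostaglandin dehydrogenase) inactivates the product. On the other branch Alox5 (5-lipoxygenase), with the membrane protein Alox5ap (FLAP) presenting its substrate, makes leukotriene A, which Lta4h (leukotriene A4 hydrolase) and Ltc4s (leukotriene C4 synthase) convert to the chemoattractant and the cysteinyl leukotrienes, and Alox15 is a lipoxygenase of another position on the fatty acid. In dendritic cells, prostaglandin E is known for its part in maturation and migration, and leukotrienes for migration to lymph nodes.

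Total counts ran from 9.73 M to 51.6 M reads with a median of 44.9 M, and the shallowest library was KO with OVA for 30 min, replicate 3, against 38.7 M for the next. Between pairs of libraries of 1 group the counts differed by a chi-square per degree of freedom of 2.28 to 16.7, except that KO with Jurkat cells for 4 h, replicate 2, differed from its 2 partners by 129 and 134. Without that library every call on the 9 genes that rested on it was kept. Levels are in CPM, the reads of a gene scaled to a library of fixed total, on library sizes scaled by TMM, a factor set from the bulk of genes, which lay between 1.03 and 1.07 except after 4 h of Jurkat cells, where it lay between 0.765 and 0.842. Rubcn, the check of the genotype labels, was lower in KO in each of the 5 conditions, with 72.8 against 98.9 CPM in untreated cells, and which part of the gene was deleted is not given in the sources used here. All 5 dendritic cell markers checked (Flt3, Itgax, Zbtb46, Cd74 and H2-Ab1) were detected in every group. With Jurkat cells for 4 h the summed markers of mature dendritic cells went from 489 to 6289 CPM in WT and from 357 to 6520.1 CPM in KO, and those of type 2 conventional dendritic cells (Sirpa, Cd209a, Clec10a, Mgl2 and Irf4) from 1057 to 615 CPM and from 1109 to 691 CPM. The sums of the other dendritic cell lists rose in both genotypes, with members of each called in both directions. In WT the 5 general markers went from 14887 to 26250 CPM, type 1 conventional markers from 367 to 472 CPM and plasmacytoid markers from 1781 to 2571 CPM. The 13 summed T lineage markers taken for Jurkat RNA, none at 0 in a group, went from 68.3 to 128 CPM in WT and from 71.2 to 99.4 CPM in KO. Over the 12 of them tested the median log2 change was 1.92 in WT and 1.44 in KO, with 2 called lower in each. The part of these shifts in the results was not tested, and in bulk RNA fewer cells of a type and less RNA per cell cannot be told apart.

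The 3 genes whose group means spanned the widest range were Ptgs2, Hpgd and Ptges, with 148-fold, 35.6-fold and 31.4-fold between the highest and the lowest of the 10 groups, against at most 4.77-fold (Alox5ap) for the other 6. For Hpgd and Ptges the lowest group was among those the choice of the genes used, so their place in this ranking is a description. The promoters of these 3 genes are shown because the data turn on their RNA. Each sequence runs 5′ to 3′ on the gene's strand from 250 bases before to 30 bases after the start in RefSeq (GRCm38.p6), where 7 of the 9 genes had an entry, and the capitals mark motif letters.
Ptgs2: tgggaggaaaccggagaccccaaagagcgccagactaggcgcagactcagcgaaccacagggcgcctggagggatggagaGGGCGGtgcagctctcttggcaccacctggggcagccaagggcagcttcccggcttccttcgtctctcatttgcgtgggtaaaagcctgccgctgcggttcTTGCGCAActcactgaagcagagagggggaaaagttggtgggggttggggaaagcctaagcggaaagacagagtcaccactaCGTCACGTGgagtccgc
Ptges: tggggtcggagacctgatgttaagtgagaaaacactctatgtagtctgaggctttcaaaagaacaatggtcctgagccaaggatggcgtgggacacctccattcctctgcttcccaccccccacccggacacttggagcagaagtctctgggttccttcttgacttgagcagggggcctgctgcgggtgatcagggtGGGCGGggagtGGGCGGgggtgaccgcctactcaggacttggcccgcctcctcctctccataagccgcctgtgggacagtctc
Hpgd: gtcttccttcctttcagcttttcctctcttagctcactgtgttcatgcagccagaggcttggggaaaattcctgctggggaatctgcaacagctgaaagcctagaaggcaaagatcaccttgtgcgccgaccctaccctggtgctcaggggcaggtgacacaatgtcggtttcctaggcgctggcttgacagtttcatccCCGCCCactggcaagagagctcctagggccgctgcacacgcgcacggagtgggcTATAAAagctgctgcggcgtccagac

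The Ptgs2 window is chr1:150099781-150100060 (plus strand), the Ptges window chr2:30903268-30903547 (minus strand) and the Hpgd window chr8:56294302-56294581 (plus strand). Both strands were searched for the letters TATAAA of the core promoter box of that name, for TTGCNNAA as the C/EBP motif, and for TGACG as the core of a cyclic AMP response element (CRE). They were also searched for CACGTG as the E box, GGGCGG as the box bound by Sp factors (GC box), TGANTCA as the AP-1 motif, GCGNGGGCG as the EGR motif, and an NF-kB consensus. Counting the start as base 1, Ptgs2 held the C/EBP letters from base -69, a GC box from base -170, and a CRE core on the reverse strand from base 14 that overlapped an E box from base 17. Ptges held 2 GC boxes, from bases -53 and -42. Hpgd held a GC box on the reverse strand from base -50 and a TATA box from base 5 of this start, which is 29 bases before the gene start in GENCODE vM21. Of 32851 promoter windows of the same length, 10.4% held the C/EBP letters, 19.9% the CRE core, 6.79% the E box, 34.7% a GC box and 13.1% the TATA letters. The AP-1, EGR and NF-kB letters, which 7.46%, 5.3% and 4.22% of the windows held, were in none of these 3 windows. Bases beyond the windows were not searched, and the start in GENCODE was compared for Hpgd alone. These matches describe the sequence and say nothing of binding.

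**Figure D1:**
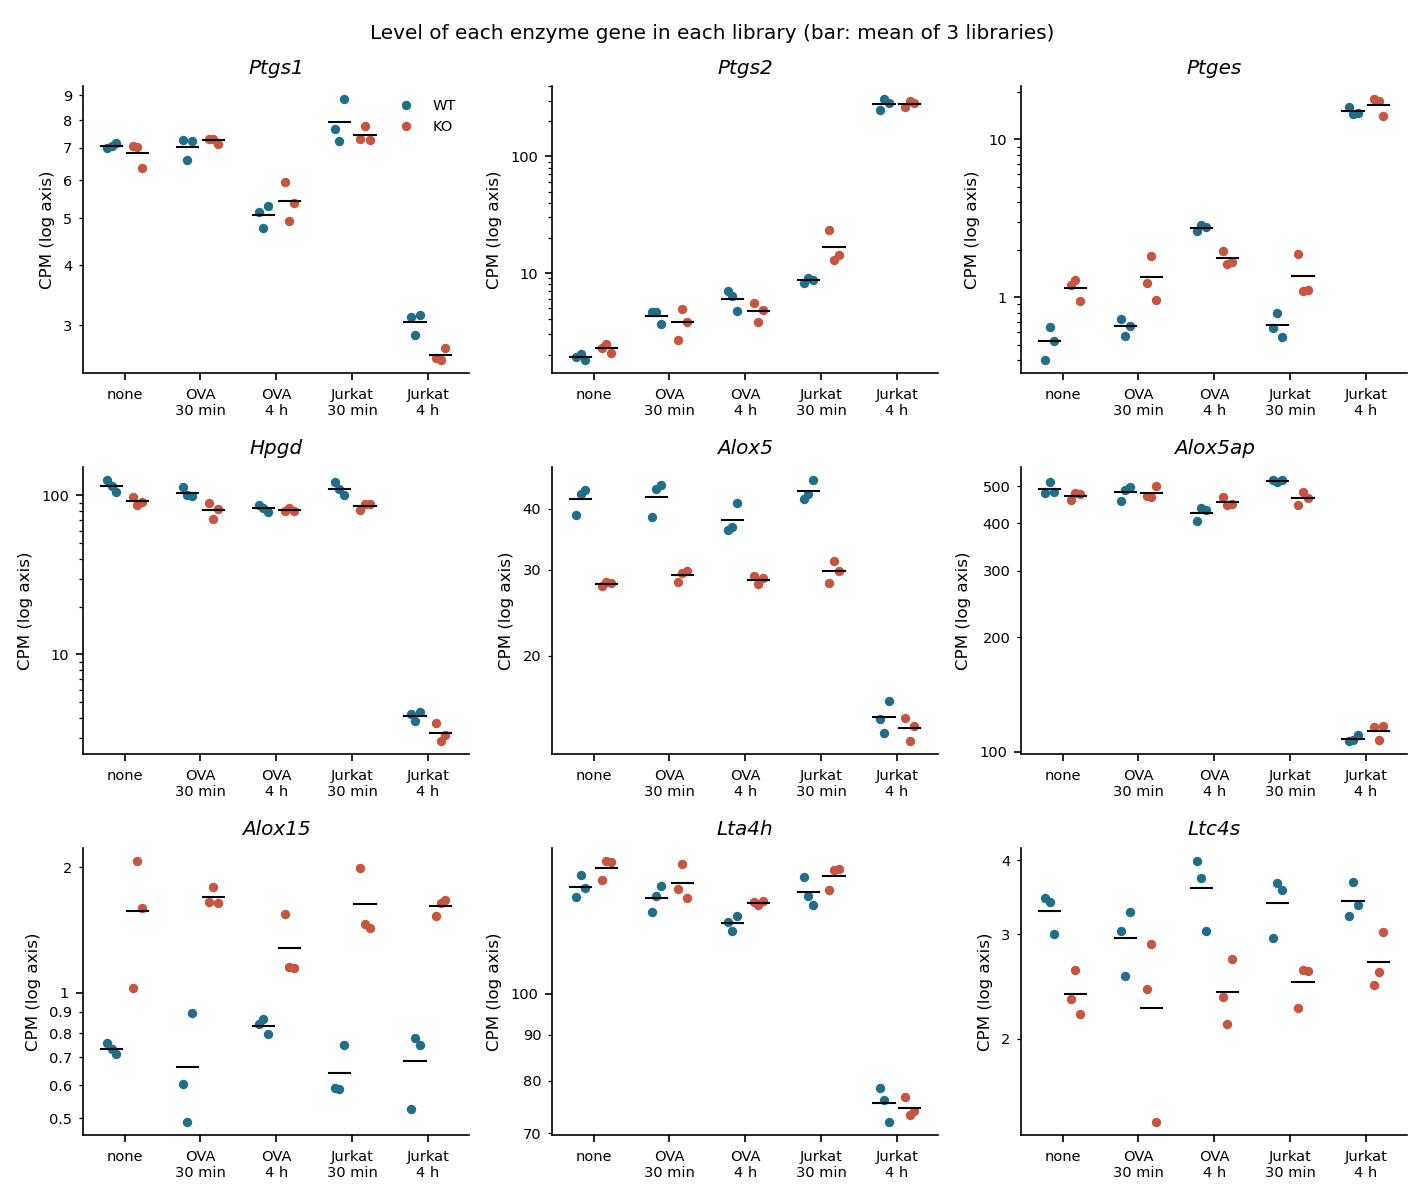
Level of each of the 9 genes in each library, in CPM on a log axis whose range differs between panels, with WT in blue, KO in red and a bar at the mean of 3 libraries. Ptgs2 and Ptges are highest, and 5 of the other genes lowest, in the libraries given Jurkat cells for 4 h, while Alox15 and Ltc4s differ between genotypes more than between treatments.

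The first comparison set each treatment against untreated cells of the same genotype. The untreated libraries have no stated time and there is no time-matched control. A change with treatment therefore cannot be told apart from one with time or handling. After 4 h with apoptotic Jurkat cells the inducible cyclooxygenase gene Ptgs2 rose in both genotypes, and Ptgs1, Alox5, Alox5ap and Lta4h fell in both. After 4 h with OVA the changes were smaller, with Ptgs2 higher and Ptgs1 and Lta4h lower in both genotypes. At 30 min Ptgs2 was the 1 gene of the 8 tested that passed, in WT with OVA and in both genotypes with Jurkat cells. A call is a false discovery rate (FDR, the p-value of edgeR's quasi-likelihood test adjusted by Benjamini-Hochberg over all 14808 genes) under 0.05. In WT, calls were made for 1 of 8 members tested with OVA for 30 min (10.7% of all genes), 5 of 8 with OVA for 4 h (23.5%), 1 of 8 with Jurkat cells for 30 min (28.7%) and 5 of 7 with Jurkat cells for 4 h (79.5%). In KO they were made for 0 of 8 (3.77%), 3 of 8 (11.6%), 1 of 8 (17%) and 5 of 7 (78.5%) in the same order. The counts at 4 h of Jurkat cells were near the share of all genes, so the sizes of the changes there say more than their number. The median log2 fold change of the 7 tested was -0.80 in WT and -0.89 in KO at that time, against -0.02 and -0.03 over all genes. Scaling to total counts, in place of TMM, took the median of all genes there to -0.42 in WT and -0.37 in KO, and rises went from 48.9% to 29% of all calls in WT and from 47.7% to 29.1% in KO. No member called at that time changed direction under it. For the 0 of 8 in KO with OVA for 30 min, 2 had an unadjusted p under 0.05 in edgeR, against 17% of all genes, and DESeq2 called 1, Ptgs2. All 4 treatments of a genotype share its 3 untreated libraries.

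Of the cyclooxygenases, Ptgs2 (chr1:150100031-150108234 in mm10, plus strand) had the widest range. In untreated WT cells it was at 1.91, 2.03 and 1.80 CPM, with OVA for 30 min at 4.59, 4.59 and 3.62, and with OVA for 4 h at 7.00, 6.39 and 4.70. Jurkat cells gave 8.27, 9.14 and 8.75 CPM at 30 min and 248, 310.3 and 288 CPM at 4 h. None of the 4 treated groups overlapped the untreated one, and the 4 h Jurkat libraries stood far above all others. The log2 fold changes in WT were 1.16 (SE 0.26, FDR 0.00389) and 1.64 (SE 0.25, FDR 1.01e-05) with OVA, and 2.19 (SE 0.23, FDR 3.88e-08) and 7.20 (SE 0.19, FDR 7.72e-24) with Jurkat cells, the last a 147-fold rise. In KO the untreated libraries were at 2.29, 2.45 and 2.04 CPM and those with OVA for 30 min at 2.69, 4.90 and 3.76, a change of 0.74 (SE 0.27, FDR 0.139) that edgeR did not call and DESeq2 did (FDR 0.0331). OVA for 4 h gave 5.57, 3.77 and 4.83 CPM in KO, a rise of 1.08 (SE 0.25, FDR 0.00358). Jurkat cells gave 23.3, 13.0 and 14.2 CPM at 30 min, a rise of 2.90 (SE 0.20, FDR 1.97e-11), and 263, 298 and 290 CPM at 4 h, a rise of 6.97 (SE 0.18, FDR 1.02e-23).

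Ptgs1 (chr2:36230426-36252271, plus strand), the constitutive form, moved the other way at 4 h. Untreated WT libraries were at 6.99, 7.07 and 7.18 CPM, those with OVA for 4 h at 5.15, 4.77 and 5.30, and those with Jurkat cells for 4 h at 3.12, 2.87 and 3.15. The 3 sets did not overlap, and the falls were -0.48 (SE 0.08, FDR 2.94e-05) and -1.21 (SE 0.09, FDR 1.92e-13) on the log2 scale. In KO, 7.08, 7.05 and 6.37 CPM in untreated cells went to 5.95, 4.93 and 5.39 with OVA for 4 h (-0.33, SE 0.08, FDR 0.00494) and to 2.57, 2.54 and 2.69 with Jurkat cells for 4 h (-1.39, SE 0.09, FDR 1.18e-14). At 30 min neither treatment gave a call for Ptgs1, with group means between 7.04 and 7.92 CPM.

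Ptges (chr2:30889471-30903297, minus strand), which acts downstream of the cyclooxygenases, was nearly off before treatment. Untreated WT libraries held 18, 30 and 26 reads of it (0.401, 0.647 and 0.531 CPM), and untreated KO libraries 57, 62 and 47 reads (1.20, 1.29 and 0.942 CPM), with no overlap. With OVA for 4 h the order turned, with 2.62, 2.85 and 2.78 CPM in WT and 1.97, 1.63 and 1.68 CPM in KO, again with no overlap. That is 5.20-fold over untreated in WT and 1.56-fold in KO, a difference of log2 responses of -1.74, and it is the pattern by which the gene was chosen, so no test is given. The higher untreated level in KO enters that difference: at 4 h itself the KO level was 0.63 lower on the log2 scale. The summed markers of mature dendritic cells were also lower in KO there, at 450.03 against 697 CPM, and their part in this was not tested. With OVA for 30 min, levels were 0.728, 0.571 and 0.660 CPM in WT and 1.22, 1.81 and 0.965 CPM in KO, the last from 10 reads in the shallow library. Jurkat cells for 4 h gave 16.1, 14.5 and 14.8 CPM in WT and 18.0, 17.4 and 14.03 CPM in KO. These levels were 28.6-fold and 14.4-fold those of untreated cells, with no test since the choice used the untreated libraries. Between KO and WT with Jurkat cells for 4 h, which the choice did not use, the log2 difference was 0.12 (95% interval -0.124 to 0.368, FDR 0.509). At 30 min of Jurkat cells Ptges was at 0.634, 0.790 and 0.563 CPM in WT and at 1.88, 1.09 and 1.11 CPM in KO.

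Hpgd (chr8:56294552-56321046, plus strand), which inactivates prostaglandins, was the gene with the steepest fall. Untreated WT libraries were at 125, 115 and 105 CPM and those with Jurkat cells for 4 h at 4.25, 3.80 and 4.33 CPM, from 127 to 162 reads. In KO, 98.2, 87.4 and 91.1 CPM went to 3.69, 2.86 and 3.13 CPM. The levels were 27.8-fold lower in WT and 28.6-fold lower in KO, given with no test because they chose the gene. At 30 min of Jurkat cells Hpgd stood at 121, 110.2 and 100.4 CPM in WT and 81.0, 88.5 and 88.0 CPM in KO and overlapped the untreated libraries in both. OVA for 4 h, which the choice did not use for this gene, gave 87.2, 83.7 and 78.4 CPM in WT, all below the untreated libraries (-0.47, SE 0.07, FDR 1.82e-05). In KO it gave 79.8, 82.9 and 79.7 CPM, also below the untreated libraries, a change of -0.19 (SE 0.07, FDR 0.0967) that was not called with all 30 libraries in 1 fit and was called in a fit of the compared groups alone (FDR 0.0143).

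On the leukotriene branch Alox5 (chr6:116410071-116461178, minus strand) and its partner Alox5ap (chr5:149265004-149288153, plus strand) both fell with Jurkat cells for 4 h. Alox5 went from 38.9, 42.8 and 43.8 CPM in untreated WT cells to 14.8, 13.9 and 16.2 CPM (-1.48, SE 0.07, FDR 1.74e-18), and from 27.7, 28.3 and 28.1 CPM in untreated KO cells to 14.9, 13.4 and 14.4 CPM (-0.98, SE 0.07, FDR 5.58e-14). With OVA for 4 h the change was -0.14 in WT (FDR 0.0899) and 0.03 in KO (FDR 0.822), and neither was called. The WT change was called without OVA replicate 3 (FDR 0.0223) or untreated replicate 1 (FDR 0.0293). The genotypes did not overlap in untreated cells or with OVA for 4 h, and overlapped only with Jurkat cells for 4 h. The fall was 0.50 smaller in KO on the log2 scale (SE 0.09, FDR 0.00241), and this was the 1 call among 7 members tested for a difference of responses to Jurkat cells at 4 h, against 4.26% of all genes. Rises were 40.3% of those calls over all genes, and 76.8% with total count scaling. The Alox5 difference kept its call when each of the 12 libraries it uses was left out in turn, with values of 0.45 to 0.56. For the other treatments 0 of 8 members were called by edgeR or DESeq2 for a difference of responses, as were 0% of all genes in edgeR with OVA for 30 min, 0.0405% with OVA for 4 h and 0.00675% with Jurkat cells for 30 min. At an unadjusted p under 0.05 these counts were 0, 2 and 1 of 8, against 5.37%, 7.41% and 7.41% of all genes.

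Alox5ap went from 481, 514 and 483 CPM in untreated WT cells to 107, 107 and 111 CPM with Jurkat cells for 4 h (-2.19, SE 0.04, FDR 1.99e-26) and from 459, 479 and 478 CPM to 116, 108 and 117 CPM in KO (-2.06, SE 0.04, FDR 8.54e-26). With OVA for 4 h it was at 404, 437 and 434 CPM in WT, below the untreated libraries (-0.21, SE 0.04, FDR 0.000323), and at 467, 447 and 449 CPM in KO, where it overlapped them (-0.06, SE 0.04, FDR 0.459). The difference between these responses was 0.16 and was not called (FDR 0.567). An antisense gene, Gm19719, covers 16% of the exon bases of Alox5ap, and since the use of strand in the counting is not given, part of its reads may belong there.

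Lta4h (chr10:93453396-93484896, plus strand), which makes the chemoattractant leukotriene, fell less. Untreated libraries were at 128, 135 and 131 CPM in WT and at 134, 140.5 and 140.1 CPM in KO, and with Jurkat cells for 4 h at 78.5, 76.3 and 72.03 CPM (-0.80, SE 0.04, FDR 3.28e-17) and 76.9, 73.2 and 74.1 CPM (-0.89, SE 0.04, FDR 2.76e-18). With OVA for 4 h the libraries did not overlap the untreated ones either, but the falls were -0.14 (FDR 0.011) in WT and -0.13 (FDR 0.0268) in KO. The WT call was lost without OVA replicate 2 (FDR 0.0571) or untreated replicate 2 (FDR 0.0655), and the KO call was lost in 5 of the 6 fits that left out 1 library and without a filter on low counts (FDR 0.0501).

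Ltc4s and Alox15 passed no test against untreated cells. Ltc4s (chr11:50236461-50238532, minus strand), the first enzyme of the cysteinyl leukotrienes, had WT group means between 2.95 and 3.59 CPM and KO group means between 2.25 and 2.69 CPM. Alox15 (chr11:70344147-70352031, minus strand) had WT group means between 0.643 and 0.834 CPM, from 20 to 43 reads a library, and KO group means between 1.28 and 1.69 CPM. With Jurkat cells for 4 h the log2 changes of Ltc4s were 0.06 (95% interval -0.229 to 0.346) in WT and 0.18 (-0.125 to 0.482) in KO.

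**Figure D2:**
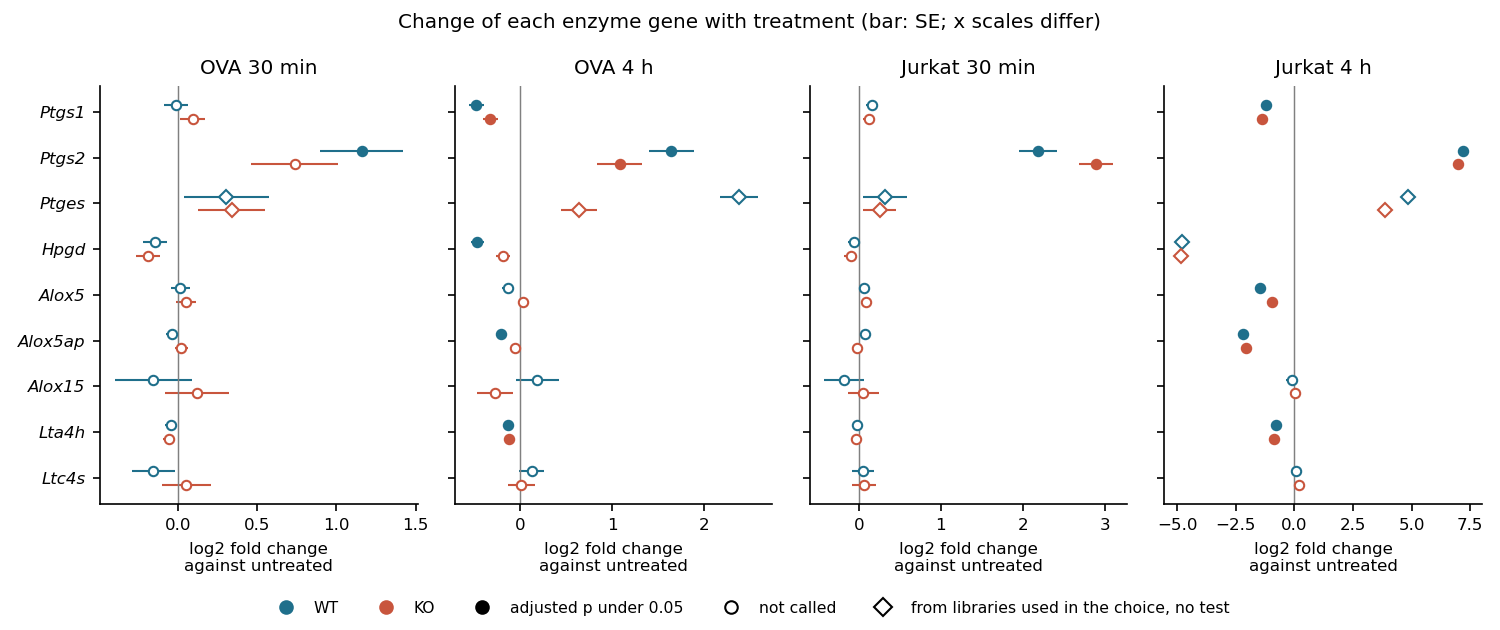
Log2 fold change of each gene against untreated cells of the same genotype, with bars of 1 SE, WT in blue and KO in red, 1 panel a treatment with its own x range. Filled circles passed the test, open circles did not, and diamonds mark untested values, from libraries used to choose the gene. The changes at 4 h of Jurkat cells run from -4.84 (Hpgd) to 7.20 (Ptgs2).

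Dividing CPM by the length of each gene's exons (GENCODE vM21) allowed a rough comparison of levels between genes. The length counts every exon base of all annotated transcripts of a gene, which can exceed the transcript expressed and lower the value per kb. In untreated WT cells Alox5ap was highest at 416 CPM per kb, followed by Hpgd at 68.3, Lta4h at 21.6, Alox5 at 10.2, Ltc4s at 3.53 and Ptgs1 at 1.82. Ptgs2 at 0.418, Alox15 at 0.299 and Ptges at 0.137 CPM per kb came last. After 4 h of Jurkat cells the order in WT was Alox5ap at 91.6 CPM per kb, Ptgs2 at 61.6, Lta4h at 12.4, Ptges at 3.95, Ltc4s at 3.68, Alox5 at 3.65, Hpgd at 2.45, Ptgs1 at 0.785 and Alox15 at 0.279. The neighbours Ptges, Ltc4s and Alox5 did not differ beyond the spread of their libraries there. Within each library, Ptgs2 relative to Ptgs1 per kb went from 0.229 ± 0.0157 (SD, n = 3) in untreated WT cells to 0.516 ± 0.0841 and 1.01 ± 0.226 with OVA at 30 min and 4 h, and to 0.942 ± 0.12 and 78.8 ± 12.2 with Jurkat cells. In KO the same ratio was 0.280 ± 0.0123 untreated, 1.93 ± 0.685 at 30 min and 92.5 ± 6.48 at 4 h of Jurkat cells. Hpgd relative to Ptgs2 per kb went from 164 ± 12.2 in untreated WT cells to 0.0403 ± 0.00666 at 4 h of Jurkat cells, and from 112 ± 12.8 to 0.0313 ± 0.00629 in KO. Per kb, Hpgd was above Ptgs2 in every untreated library and below it in every library with Jurkat cells for 4 h. The low level of Hpgd at that time chose the gene, so this crossing is a description with no test. Ptges relative to Ptgs2 was 0.328 ± 0.0691 in untreated WT cells and 0.0650 ± 0.0112 at 4 h of Jurkat cells, and 0.602 ± 0.0438 and 0.0699 ± 0.0119 in KO.

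**Figure D3:**
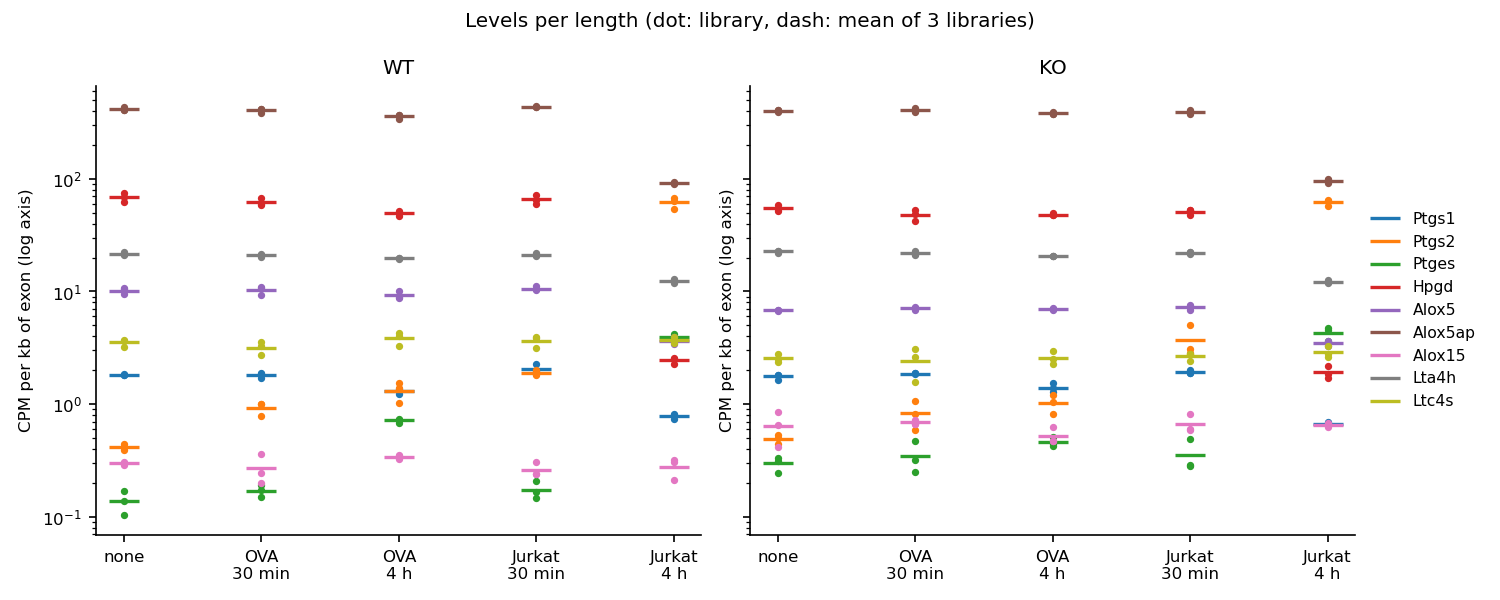
Level of each gene per length, in CPM per kb of exon on a log axis, by condition in WT (left) and KO (right), with a dot for each library and a dash at the mean of 3. Ptgs2 goes from 0.418 to 61.6 CPM per kb in WT and crosses Hpgd, which goes from 68.3 to 2.45. The fall of Hpgd is the pattern by which that gene was chosen.

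The genotypes were also compared within each condition. Alox5 and Hpgd were lower and Alox15 was higher in KO in untreated cells, and Ltc4s was lower there with an FDR nearer the threshold (0.0332). In untreated cells 4 of 8 members tested were called (9.97% of all genes). With OVA the counts were 3 of 8 at 30 min (12.4%) and 2 of 8 at 4 h (12.6%). With Jurkat cells they were 7 of 9 at 30 min (9.25%) and 1 of 8 at 4 h (22.9%). The median log2 difference of the members tested was -0.06 in untreated cells and -0.0049 at 4 h of Jurkat cells, against -0.01 over all genes in both. The share of rises among all calls depended on the scaling. At 4 h of Jurkat cells it was 40.9% by TMM, 33.8% by DESeq2 size factors and 74.8% by total counts. By TMM and by total counts it was 50.5% and 63.8% with OVA for 30 min, and 49.5% and 64.5% with OVA for 4 h. The calls for Hpgd, Alox5 and Alox15 with OVA for 30 min held without the shallow library.

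Alox5 was lower in KO by 0.58 on the log2 scale in untreated cells (SE 0.06, FDR 9.85e-08), by 0.54 with OVA for 30 min (FDR 9.13e-07), by 0.41 with OVA for 4 h (FDR 1.59e-05) and by 0.55 with Jurkat cells for 30 min (FDR 3.97e-07). In each of these the 3 KO libraries, between 27.7 and 31.3 CPM over the 4 conditions, lay below the 3 WT libraries, between 36.2 and 45.9 CPM. At 4 h of Jurkat cells the libraries overlapped and the difference was -0.08 (95% interval -0.224 to 0.0734, FDR 0.498). Relative to Alox5 per kb, Alox5ap was at 40.9 ± 2.41 in untreated WT cells and at 58.4 ± 0.797 in untreated KO cells (SD, n = 3). At 4 h of Jurkat cells those ratios were 25.2 ± 1.54 and 27.7 ± 0.595.

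Alox15 was higher in KO with no overlap in any of the 5 conditions. Untreated libraries were at 0.757, 0.733 and 0.714 CPM in WT and at 1.03, 2.07 and 1.603 CPM in KO (1.09, SE 0.21, FDR 0.000924). The difference was 1.37 (SE 0.23, FDR 0.000149) with OVA for 30 min, 1.33 (SE 0.22, FDR 0.000182) with Jurkat cells for 30 min and 1.24 (SE 0.24, FDR 0.000325) with Jurkat cells for 4 h. With OVA for 4 h, where WT was at 0.844, 0.863 and 0.796 CPM and KO at 1.54, 1.15 and 1.15 CPM, it was 0.63 (SE 0.22, FDR 0.0523) and missed the threshold, which it passed with total count scaling (FDR 0.0368) or in a fit of these groups alone (FDR 0.035).

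Hpgd was lower in KO by 0.32 in untreated cells (SE 0.07, FDR 0.00421), by 0.36 with OVA for 30 min (SE 0.08, FDR 0.00158) and by 0.36 with Jurkat cells for 30 min (SE 0.07, FDR 0.00174), with no overlap in any of the 3. With OVA for 4 h the genotypes overlapped and differed by -0.04 (95% interval -0.191 to 0.112). At 4 h of Jurkat cells, where the levels chose the gene and no test is given, KO averaged 3.23 CPM against 4.12 CPM for WT.

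Ltc4s was lower in KO by 0.46 in untreated cells (SE 0.14, FDR 0.0332), by 0.58 with OVA for 4 h (SE 0.14, FDR 0.00555) and by 0.45 with Jurkat cells for 30 min (SE 0.14, FDR 0.042). In untreated cells it was at 3.45, 3.41 and 3.0 CPM in WT and at 2.33, 2.61 and 2.20 CPM in KO, which did not overlap. The untreated call was lost in 4 of the 6 fits that left out 1 library and the 30 min call in 5 of 6, with FDR up to 0.118 and 0.162, and the latter was also lost in a fit of these groups alone (FDR 0.0511). With OVA for 30 min the shallow KO library held 15 reads of Ltc4s (1.45 CPM), the groups overlapped and no call was made (FDR 0.281). The antisense gene Gm26542 covers 28.8% of the exon bases of Ltc4s, so its reads are uncertain in the same way.

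Ptgs2 and Ptges were both higher in KO at 30 min of Jurkat cells. For Ptgs2 the difference was 0.95 on the log2 scale (SE 0.16, FDR 0.000333) with no overlap, and without KO replicate 1, the highest library at 23.3 CPM, it was 0.64 (FDR 0.00349). The difference between the responses of the genotypes was 0.71 for Ptgs2 and was not called (SE 0.34, FDR 0.664). For Ptges the 30 min difference was 1.04 (SE 0.22, FDR 0.00291), and 0.74 (FDR 0.0387) without the same library, next to untreated levels that differed by 1.11. At 4 h of Jurkat cells Ptgs2 differed between genotypes by 0.01 (95% interval -0.242 to 0.256). Alox5ap was lower in KO at 30 min of Jurkat cells by 0.15 (FDR 0.0183), a call lost in 5 of the 6 fits that left out 1 library. Ptgs1 and Lta4h were not called between the genotypes in any condition, with log2 differences from -0.23 to 0.10 and from -0.02 to 0.08.

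Some markers of other cells and of maturation also differed between the genotypes. The summed markers of mature dendritic cells (Ccr7, Fscn1, Ccl22, Il4i1 and Cacnb3) in KO were 0.73 of those in WT in untreated cells and 0.646 with OVA for 4 h (exact permutation test, two-sided, p = 0.1 each), with 3 of 5 and 5 of 5 called lower and medians of -0.53 and -0.51 on the log2 scale. The ratio was 0.877 with OVA for 30 min, 0.997 with Jurkat cells for 30 min and 1.04 with Jurkat cells for 4 h. The summed basophil or mast cell markers were at 26.7 CPM (23.6 to 30.1) in untreated WT cells and at 79.8 CPM (60.2 to 93.5) in KO, and were higher in KO in every condition (exact permutation test, two-sided, p = 0.1 each, the smallest that 3 against 3 allows). All 8 of these markers were tested and none was at 0 in a group, with 2 of the 8 under 1 CPM in untreated WT cells. In untreated cells, summed stromal markers were at 453 CPM in WT and 608 CPM in KO (p = 0.1 by the same exact test). Plasmacytoid markers were at 1781 and 1588 CPM (exact test, p = 0.1), with 1 of 5 called higher, 2 lower and a median of 0.03. Neutrophil markers were at 158 and 135 CPM (exact test, p = 0.2), with 1 of 10 called lower and 0 higher. Eosinophil markers summed to 7.33 and 8.42 CPM (exact test, p = 0.2), with 5 of 7 under 1 CPM. Monocyte or macrophage markers were at 2562 and 2769 CPM (exact test, p = 0.2), with 1 of 8 called higher and 1 lower. With OVA for 4 h the latter were at 3197 CPM in WT and 3154 CPM in KO (exact test, p = 0.6), with 0 of 8 called higher and 4 lower. The part of these differences in the results for Alox5, Alox15, Hpgd, Ltc4s and Ptges was not tested.

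**Figure D4:**
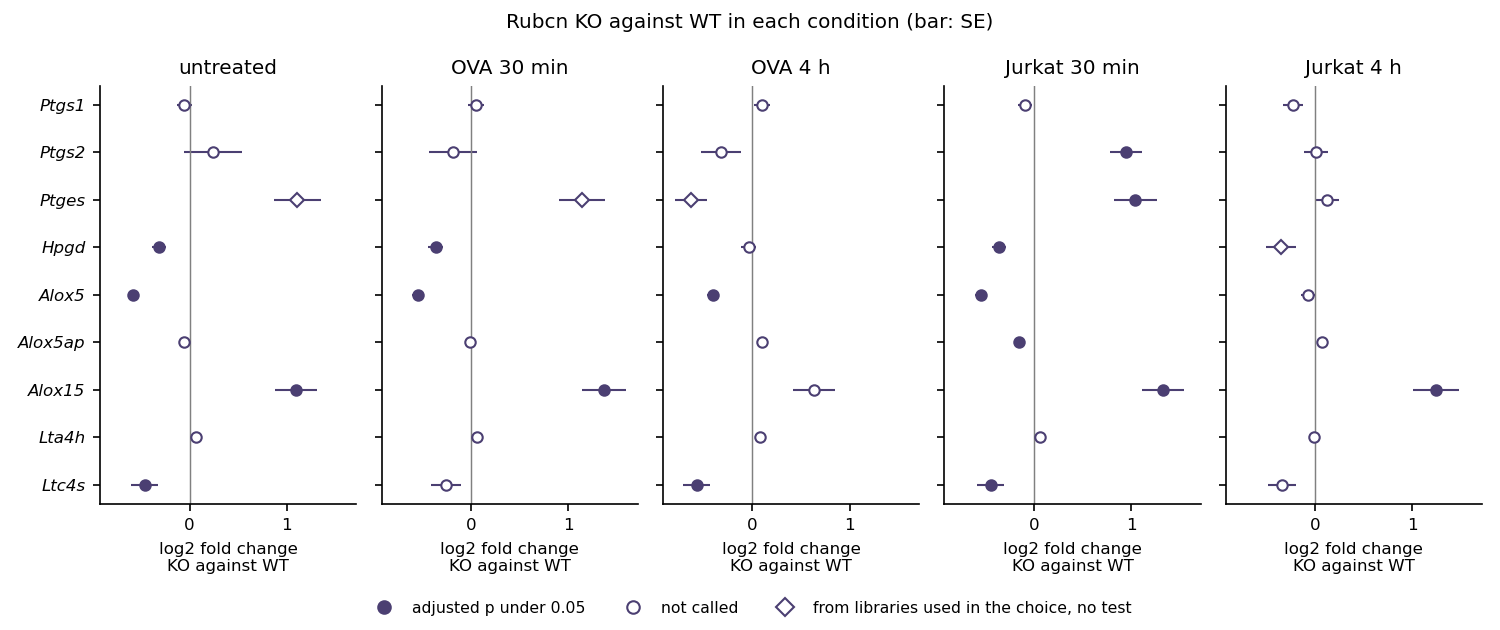
Log2 fold change of each gene in KO against WT in each of the 5 conditions, with bars of 1 SE, filled where the test was passed and with diamonds for untested values from libraries used to choose the gene. Alox5 lies between -0.58 and -0.41 in 4 conditions and at -0.08 with Jurkat cells for 4 h, and Alox15 lies above 0 in all 5.

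Apoptotic Jurkat cells were also set against OVA at the same time. At 30 min Ptgs2 was the 1 member called in either genotype, higher with Jurkat cells by 1.03 in WT (SE 0.20, FDR 0.000316) and by 2.16 in KO (SE 0.21, FDR 1.98e-08). That is 1 of 8 members in each, against 24.3% of all genes in WT and 10.2% in KO. At 4 h 5 of 7 were called in each genotype, against 77.5% and 76.4% of all genes, and rises were 48% and 47.5% of those calls, or 26.5% and 27.5% with total count scaling. Ptgs2 was higher by 5.56 (SE 0.16) in WT and 5.89 (SE 0.17) in KO. Alox5ap was lower by 1.97 and 2.0, Alox5 by 1.35 and 1.01, Ptgs1 by 0.73 and 1.07, and Lta4h by 0.66 and 0.76 on the log2 scale. Ltc4s and Alox15 were not called. Untested here, Hpgd was 20.1-fold and 25.0-fold lower, and Ptges 5.50-fold and 9.28-fold higher, with Jurkat cells.

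A list of 52 other genes of the pathway, from phospholipases to receptors, gives the surroundings of the 9, and 44 of them passed the filter. In WT, 6 rose and 9 fell with OVA for 4 h (23.5% of all genes called), and 16 rose and 20 fell with Jurkat cells for 4 h (79.5%), when the list's median log2 change was -0.19 against -0.02 over all genes. In KO, 1 rose and 2 fell with OVA for 4 h (11.6%), and 16 rose and 21 fell with Jurkat cells for 4 h (78.5%). Counts by role with Jurkat cells for 4 h in WT also stand beside the 79.5% of all genes called there. Among prostanoid receptors with Jurkat cells for 4 h in WT, 2 rose and 5 fell of 8. Ptger4, a receptor of prostaglandin E that raises cyclic AMP, rose from 74.3 ± 1.38 to 266 ± 13.9 CPM (1.84, FDR 2.73e-23), while Ptger3, a receptor of the same ligand that lowers it, fell from 46.5 ± 1.34 to 4.90 ± 0.621 CPM (-3.24, FDR 1.74e-25). Ptger2 fell from 9.51 to 3.62 CPM (-1.39, FDR 7.75e-13). In KO the log2 changes of Ptger4 and Ptger3 were 1.84 and -2.97.

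Among 7 receptors of leukotrienes and lipoxins, 5 rose and 2 fell in WT with Jurkat cells for 4 h, beside the same 79.5%. Ltb4r1, the high-affinity receptor of leukotriene B4, fell from 25.6 ± 1.61 to 1.58 ± 0.376 CPM (-4.0, FDR 5.63e-24), and Cysltr1, a receptor of cysteinyl leukotrienes, from 107 ± 13.6 to 22.3 ± 0.699 CPM (-2.26, FDR 3.66e-20). Fpr2, a formyl peptide and lipoxin receptor, rose from 1.29 ± 0.152 to 40.0 ± 0.850 CPM (4.95, FDR 1.14e-21), and to 10.3 ± 1.46 CPM with OVA for 4 h (2.99, FDR 1.74e-13). Fpr2 was lower in KO with OVA for 4 h, at 4.37 ± 1.0 CPM (-1.24, FDR 4.33e-07). Dpep2, a dipeptidase that trims the cysteinyl leukotrienes, fell from 570 ± 33.3 to 107 ± 8.44 CPM (-2.41, FDR 3.16e-24).

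Among other synthases Tbxas1, the thromboxane synthase, fell from 94.2 ± 1.04 to 35.4 ± 0.158 CPM in WT with Jurkat cells for 4 h (-1.41, FDR 6.27e-21), and Ptges3 rose from 59.6 to 88.9 CPM (0.58, FDR 4.2e-08). Hpgds, the haematopoietic prostaglandin D synthase, was at 112 ± 6.86 CPM untreated and 107 ± 9.65 CPM with Jurkat cells for 4 h in WT, and went from 125 ± 1.88 to 91.1 ± 2.21 CPM in KO (-0.45, FDR 5.15e-08). That difference of responses was the 1 call among the 44 (-0.40, SE 0.08, FDR 0.00543), against 4.26% of all genes. Abcc4, an exporter of prostaglandins, fell from 71.0 to 30.5 CPM (-1.22, FDR 5.1e-20). Of the phospholipases, Pla2g4a, the cytosolic enzyme that frees arachidonic acid, rose from 8.01 to 13.4 CPM (0.74, FDR 1.75e-09), Pla2g7 from 25.8 to 42.6 CPM (0.73, FDR 2e-07), and Pla2g15 fell from 50.0 to 27.1 CPM (-0.88, FDR 1.33e-12). Between the genotypes, 7 of the 44 were higher and 1 lower in untreated KO cells (9.97% of all genes called) and 13 higher and 3 lower with OVA for 4 h (12.6%). With OVA for 30 min 5 were higher and 1 lower in KO (12.4%). With Jurkat cells 5 were higher and 0 lower at 30 min (9.25%), and 11 higher and 3 lower at 4 h (22.9%). Ptger3 was higher in KO in all 5 conditions, by 0.23 in untreated cells (FDR 0.00504) and by 0.50 with Jurkat cells for 4 h (FDR 0.00017).

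**Figure D5:**
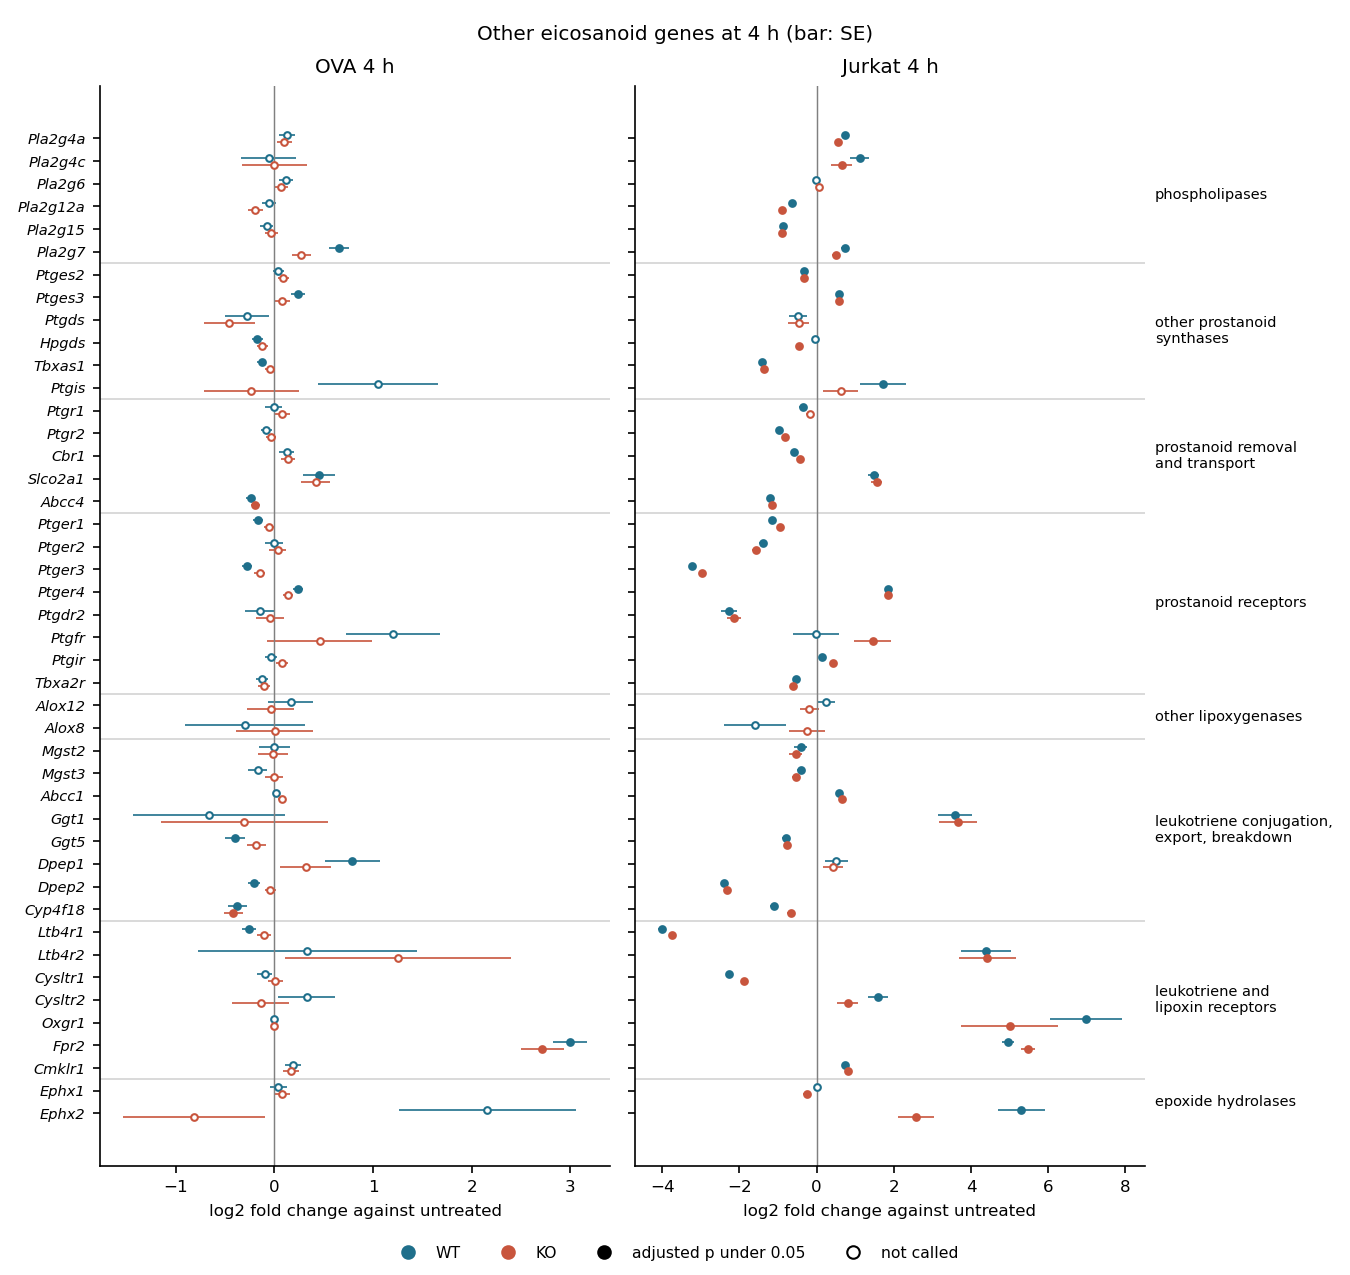
Log2 fold change against untreated cells of the 44 other genes of the pathway that passed the filter, by role, with OVA for 4 h (left) and Jurkat cells for 4 h (right), WT in blue, KO in red and bars of 1 SE, filled where the test was passed. With Jurkat cells Ltb4r1 is at -4.0 and Fpr2 at 4.95 in WT. Genes with wide bars rest on few reads.

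Genes with a like pattern were ranked by Pearson correlation of the 10 group means of log2 (CPM + 0.5) among 10409 genes of at least 5 CPM in a group, as a description without a p, since the points share libraries and are led by the 2 groups with Jurkat cells for 4 h. For Ptgs2 the nearest were Il1a (r = 0.997), Dusp2 (r = 0.997) and Ccl3 (r = 0.993), a cytokine, a phosphatase of MAP kinases and a chemokine. Il1a went from 0.504 to 69.4 CPM in WT between untreated cells and 4 h of Jurkat cells. For Hpgd they were Klf4 (r = 0.999), Fcgrt (r = 0.999) and Oard1 (r = 0.999). In WT Klf4, a transcription factor, went from 126 to 9.83 CPM, Fcgrt from 216 to 40.4 CPM and Oard1 from 22.2 to 12.6 CPM. The correlation does not measure the size of a change. For Ptges the nearest were Ak4 (r = 0.995), Adamts4 (r = 0.995) and Nupr1 (r = 0.995). The patterns of Hpgd and Ptges include the values that chose these 2 genes.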

How the data were processed

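Raw gene-level counts of reads, as whole numbers, were deposited by the authors in 1 table of 30 libraries, with symbols, Entrez identifiers and mm10 intervals, per the file headers. The submitters' processing notes name STAR 2.5, Subread, featureCounts 1.5.0-p1 and DESeq2 without their roles. How human reads, strand and overlapping genes were handled is not given in the sources used here. Groups and replicate numbers came from the sample titles.

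Genes were kept with filterByExpr by group and scaled by TMM in edgeR 4.0.16 (R 4.3.3). A quasi-likelihood F test, two-sided, was run in a model with 1 mean for each of the 10 groups, and p-values were adjusted by Benjamini-Hochberg over all 14808 genes. The SE of a log2 fold change is its absolute value over the root of F. DESeq2 1.42.0 was an alternative, with other scalings, filters, a replicate block and fits without each library. Scripts were tested on simulated data.

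The members and gene lists were chosen with earlier results of these data known. Left without a test were Hpgd at 4 h of Jurkat cells against untreated or OVA, and Ptges with OVA. After the values were seen, every other comparison of Ptges with untreated or OVA libraries, and of Hpgd with libraries of 4 h of Jurkat cells, was left out too, since the choice used those libraries. Of the other pathway genes, those named are, for each role, up to 3 called with the largest change in WT at 4 h, and up to 3 with the smallest p in each comparison between genotypes, at 5 CPM or more in a group. For likeness the nearest 3 genes were taken, without predicted genes. Summed markers were compared by exact permutation. Promoters came from RefSeq (GRCm38.p6) and exon lengths from GENCODE vM21.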

Additional observations from a re-analysis of the deposited data

Results flagged for a closer look

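The response to Jurkat cells at 4 h differed between the genotypes for 2 of the genes described. For Alox5 the log2 response of KO minus that of WT was 0.50 (edgeR, FDR 0.00241), with levels of 41.9 and 15.0 CPM in WT and of 28.1 and 14.2 CPM in KO before and after. For Hpgds, 1 of the other genes of the pathway, it was -0.40 (FDR 0.00543), with 112 and 107 CPM in WT and 125 and 91.1 CPM in KO.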

How the results depend on the processing

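Over the members, the main counts of calls were 21 for treated against untreated, 17 for KO against WT, 1 for the difference of responses and 12 for Jurkat cells against OVA. A filter of at least 5 CPM in 3 libraries left 10 calls for KO against WT, since the low genes were not tested there. The untested Ptges and Hpgd comparisons were widened after the data were seen. With the narrower set first fixed, an alternative added at that point, the counts were 23, 18, 2 and 14. Leaving out 1 library at a time gave 20 to 23, 15 to 18, 1 and 12 to 13 calls over 30 fits. The other scalings, the lack of a filter, DESeq2 and fits of the compared groups alone kept each count within 1.5 times the main one. Over both genotypes, replicate numbers showed no clear pairing of the samples. The correlations of same-numbered libraries ran from -0.325 to 0.592 with a median of 0.00818, against a median of 0.00452 for different numbers. Within WT the same-number median was 0.114 and within KO 0.0175, and 11 of 30 libraries correlated best with their own number. With a replicate block the counts were 23, 17, 1 and 12, and the same under a block within genotype. Hpgd in KO (FDR 0.0451 and 0.0286) and Alox5 in WT (FDR 0.033 and 0.0175), both with OVA for 4 h, passed the threshold under both blocks. No called value of a member changed sign. The untested differences of the Ptges responses at 30 min, 0.03 with OVA and -0.06 with Jurkat cells, lie near 0 and changed sign in some fits, with ranges of -0.27 to 0.20 and -0.37 to 0.09 when 1 library was left out; a change of sign was counted only for values over 2 SE, a rule set after these were seen. For Hpgd at 4 h of Jurkat cells, total count scaling gave -5.20 in WT and -5.18 in KO in place of -4.80 and -4.84, and for Ptges 4.44 and 3.51 in place of 4.84 and 3.85. Depth limits Alox15, Ptges and Ltc4s most, at 10 to 190 reads a library outside Jurkat cells for 4 h.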
